A study of Mus musculus with 7 samples.

Results

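The genes described here are the engine of the cell cycle: 46 genes for cyclins, cyclin-dependent kinases (CDKs) and their inhibitors, the retinoblastoma (pocket) proteins, the E2F transcription factors, the MCM helicase with PCNA, and the kinases, motors and checkpoint proteins of mitosis, with *Mki67* as a general marker of cycling cells. They were chosen by gene symbol from knowledge of the pathway, with earlier results of these data known. All 46 were among the 31531 genes of the deposited table, and all 46 were among the 25791 genes that passed the filter on low values, a mean of at least 5 normalized counts.

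In a dividing cell, D-type cyclins with CDK4 and CDK6, and then E-type cyclins with CDK2, phosphorylate the pocket proteins, which releases the E2F factors to switch on genes for DNA replication. Cyclin A, cyclin B and CDK1 then drive entry into mitosis, and the CDK inhibitors act against these kinases at several steps. Skeletal muscle fibers are formed by fusion of myoblasts that have left the cycle, and fiber nuclei do not divide, so that in fetal muscle the dividing cells are the myoblasts and progenitors beside the fibers and the cells of connective tissue, vessels and blood.

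RNA was sequenced from muscle fibers of 7 mouse fetuses at embryonic day 17.5, 4 WT and 3 homozygous for dyW, all from crosses of heterozygous dyW mice on a C57BL/6 background, with 1 library per fetus. The dyW allele disrupts *Lama2*, the gene for the laminin α2 chain, in the whole animal and is used as a model of LAMA2-CMD, a congenital muscular dystrophy. The fibers came from the back (epaxial) muscles, which were digested with dispase and collagenase and passed over a strainer, and full-length cDNA was made by SMART-seq2, whose reads carry no molecular identifiers. The unit used throughout is the normalized count, the reads of a gene divided by 1 size factor per library, and the study's comparison is that of dyW with WT fibers before the muscle looks abnormal.

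Several libraries stood apart before any comparison. Per library, gene reads numbered from 470804 to 2220813 over the WT libraries and from 3663905 to 18297106 over the dyW libraries. *Lama2* was at 90.6 to 111 normalized counts in the WT libraries and at 4.29 and 6.07 in dyW1 and dyW2, but at 139.7 in the third dyW library, which goes against its genotype, so it is written here as the library labelled dyW3. The 12 markers of muscle fibers summed to 3012 to 94756 in WT, 11226 in dyW2 and 8626 in the library labelled dyW3, but to 69.5 in dyW1, where 6 of the 12, *Actc1* among them, were at 0. In WT1 the 7 measured cartilage markers summed to 439454, against 8796 or less in every other library. Fold changes (log2, dyW minus WT) moved by more than 1.5-fold for 15 of the 46 genes without dyW1, for 25 without dyW2, for 19 without the library labelled dyW3 and for 0 to 2 without any 1 WT library. Where a fold change of the 46 genes printed below moved so, its value without that library is given too. In bulk RNA, fewer cycling cells and less RNA per cycling cell cannot be told apart.

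Between the genotypes, 2 of the 46 genes passed the test at an adjusted *P*-value under 0.05, and both were lower in dyW: the activating E2F factors *E2f1* and *E2f2*. Their WT reads were few, at a median of 2.50 and 1.17 times the density of reads on odorant and vomeronasal receptor genes, which muscle does not use. When that density was subtracted from each library, *E2f1* did not pass (adjusted *P*-value of 0.235) and *E2f2* dropped below the filter and was not tested. In limma, at an adjusted *P*-value under 0.01 and a log2 fold change beyond 1.5 in size, 1 gene was lower in dyW (*E2f2*), where 18.7% of all genes tested were lower, and 0 genes were higher, where 0.0659% were higher. The *E2f2* call at 0.01 was lost with each library left out, where 0% to 25.8% of all genes were lower. With the adjusted *P*-value taken up to 0.05 at an equal fold, 2 genes were lower (29.6% of all genes) and 0 were higher (1.004% of all genes). Without adjustment, 6 of the 46 genes had a limma *P*-value under 0.05, against 44.3% of all genes, and with voom on the recovered reads 1 gene was lower (26.6% of all genes) and 2 were higher (1.86%) at the adjusted 0.05.

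The median log2 fold change of the 46 genes was 0.29, while that of all genes tested was -1.99, so the median cell cycle gene lay 2.28 above the median gene on the log2 scale. The log2 fold change was above 0 for 29 of the 46 genes and for 20.4% of all genes tested. This distance was 2.40 with equal totals for all libraries but 0.35 after quantile normalization, 0.38 among genes with a mean of at least 50 normalized counts, where the median of all genes was 0.20, and 0.78 with the receptor level subtracted. Every WT library was above every dyW library for 3 genes, *E2f1*, *E2f2* and *Ccnd3*, against 31.5% of all genes. With equal totals for all libraries this held for *E2f1* and *E2f2* (21.3% of all genes), while *Ccnd3* overlapped. Every dyW library was above every WT library for 4 genes, *Mki67*, *Pcna*, *Bub1* and *Cenpf*, against 3.28% of all genes, and with equal totals it was so for 12 genes, against 9.38%. With 4 and 3 libraries the exact two-sided permutation test over 35 splits cannot give a *P*-value below 0.0571, the value that each of these 7 genes had.

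**Figure D1:**
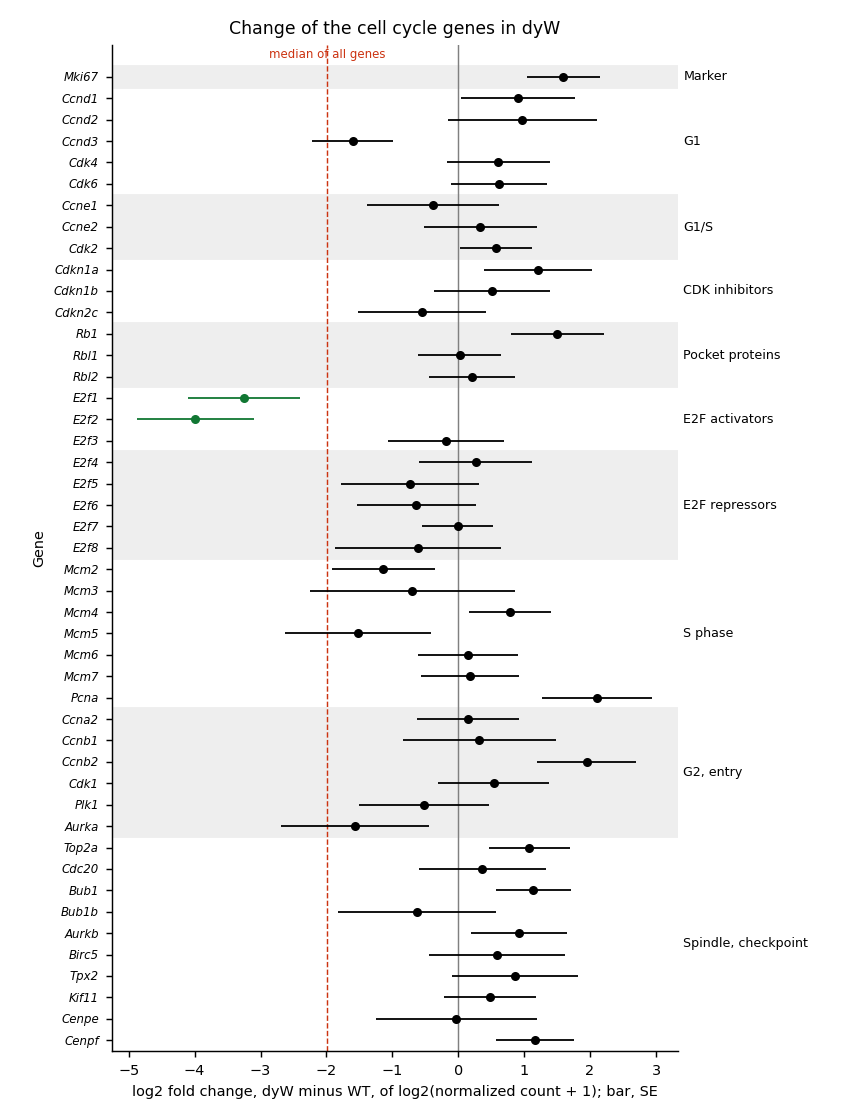
Log2 fold change (dyW minus WT, of the log2 normalized count plus 1; x axis) of each of the 46 genes (y axis, by group), with bars of 1 SE from limma; the 2 genes past the adjusted *P*-value of 0.05 are green, and the dashed line is the median of all genes tested, -1.99. Of the 46 points, 29 lie to the right of 0, and *E2f2* at -3.99 and *E2f1* at -3.25 lie farthest to the left.

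*E2f1*, *E2f2* and *E2f3* encode the E2F factors that activate the genes of S phase. *E2f2* was at 32.0, 45.8, 12.3 and 28.3 normalized counts in WT1 to WT4, at 4.43 in dyW2, and at 0 in dyW1 and in the library labelled dyW3. The gene (ENSMUSG00000018983, chr4:135899585-135923368 on GRCm39, plus strand) overlaps no other annotated exon, and the groups do not overlap. A count of 0 allows up to 3 reads, that is 0.292 normalized counts in dyW1 and 1.47 in the library labelled dyW3, counting error only. The log2 fold change was -3.99 (SE 0.88, adjusted *P*-value of 0.00861), or -1.999 relative to the median of all genes, and its size depends on the pseudocount of 1 because of the zeros, as it was -6.24 with a pseudocount of 0.1 and -1.74 with 10. Without dyW2 it was -4.80 (adjusted *P*-value of 0.0141). The adjusted *P*-value was 0.0102 to 0.0378 with each library left out, 0.0439 with equal totals, and 0.0172 and 0.0367 with pseudocounts of 0.1 and 10. The WT values rest on 6 to 17 reads per library.

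*E2f1* was at 80.0, 35.1, 41.0 and 34.6 normalized counts in WT1 to WT4, and at 6.14, 0.506 and 9.28 in dyW1, dyW2 and the library labelled dyW3. The lowest WT value was thus above the highest dyW value, and no other annotated exon overlaps the gene (ENSMUSG00000027490, chr2:154401326-154411812 on GRCm39, minus strand). The log2 fold change was -3.25 (SE 0.85, adjusted *P*-value of 0.0176), or -1.26 relative to the median of all genes. The WT values rest on 11 to 20 reads per library, against 63, 4 and 19 reads in dyW1, dyW2 and the library labelled dyW3. Without dyW2 the log2 fold change was -2.42 (adjusted *P*-value of 0.0404). The call of *E2f1* was lost without WT1 (log2 fold change -2.98, adjusted *P*-value of 0.0621), without WT2 (-3.37, 0.0551) and without WT4 (-3.37, 0.0545), with folds close to that of all libraries. It was also lost with voom (-3.10, 0.205), with the replicate number as a block (-3.37, 0.0812), with equal totals for all libraries (-2.27, 0.170), after quantile normalization (-1.40, 0.454) and with the receptor level subtracted (-2.49, 0.235). In these fits, in that order, 26.6%, 0.00775%, 17.9%, 0.318% and 0.658% of all genes were lower at 0.05, against 29.6% in the fit reported. The call of *E2f2* was lost after quantile normalization, where the log2 fold change shrank to -1.23 (0.604), and with the block, where it was -3.96 (0.0617), and with a mean of at least 50 normalized counts neither gene was tested.

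*E2f3* did not pass the test in limma. It was at 42.6, 16.2, 10.3 and 31.5 normalized counts in WT1 to WT4, and at 35.4 in dyW1, 5.56 in dyW2 and 33.2 in the library labelled dyW3. The groups overlap, with dyW2 below every WT library and the other two dyW libraries inside the WT range (log2 fold change -0.18, SE 0.88, adjusted *P*-value of 0.889, and 0.62 without dyW2). The difference between *E2f3* and the other activators was not tested. Summed over the 3 activators, the level was 63.6 to 155 normalized counts in WT and 10.5 to 42.5 in dyW.

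The other members of the family, *E2f4* to *E2f8*, repress transcription, with *E2f4* and *E2f5* acting together with pocket proteins and *E2f7* and *E2f8* acting without a dimerization partner. None of the 5 passed the test in limma. *E2f7* was the most even of the 46 genes in dyW, at 53.3, 56.6, 47.2 and 47.2 normalized counts in WT1 to WT4 and at 46.7, 49.7 and 55.7 in the dyW libraries (log2 fold change -0.01, SE 0.54, adjusted *P*-value of 0.990). Its coefficient of variation (CV, the SD over the mean) was 9.19% in WT and 9.03% in dyW.

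*E2f4* was at 5.33, 56.6, 38.97 and 25.2 normalized counts in WT1 to WT4, where 5.33 is a single read, and at 36.3, 24.8 and 26.9 in dyW. All dyW libraries lay inside the WT range. *E2f5* was at 15.99, 16.2, 18.5 and 25.2 in WT1 to WT4, at 10.4 in dyW1, 58.1 in dyW2 and 1.47 in the library labelled dyW3. *E2f6* was at 42.6, 37.8, 73.8 and 34.6 in WT1 to WT4, at 31.9 in dyW1, 99.8 in dyW2 and 6.84 in the library labelled dyW3. *E2f8* was at 10.7, 16.2, 18.5 and 18.9 in WT1 to WT4, at 34.9 in dyW1, 35.03 in dyW2 and 0 in the library labelled dyW3. In these 3 genes dyW2 was above every WT library and the library labelled dyW3 was below every WT library, so the dyW libraries lay on both sides of WT. For *E2f5*, 43.4% of the exon length overlaps *Rbis* on the other strand, and as the strand setting of the counting is not given in the sources used here, reads of these 2 genes cannot be told apart.

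**Figure D2:**
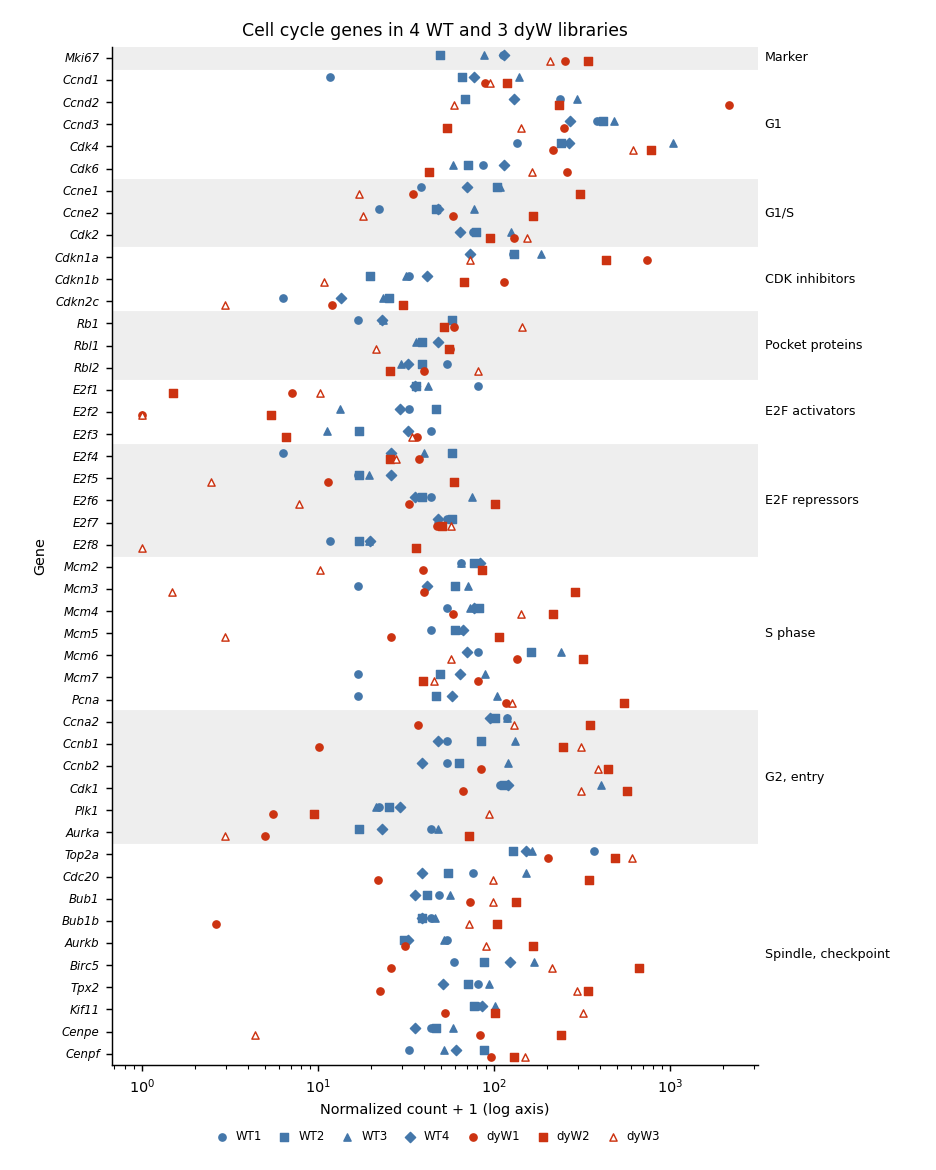
Normalized count plus 1 (x axis, log scale) of each of the 46 genes (y axis, by group) in each library, with WT in blue, dyW1 and dyW2 in filled red and the library labelled dyW3 in open red. The WT points of a gene mostly lie close together while the dyW points spread, and *E2f1*, *E2f2* and *Ccnd3* are the genes with all red points to the left of all blue points.

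Promoter sequences were searched because E2F factors and their partners bind short words there, and the words were not compared with the expression values. RefSeq promoter windows of 300 bases (250 before and 50 after the start, GRCm38.p6) were matched by symbol for 36 of the 46 genes. No window was given for *Rb1*, *E2f4*, *Aurkb*, *Tpx2*, *Ccnd1*, *Ccna2*, *Mcm4*, *E2f5*, *Ccnd2* and *Ccne2*. On both strands, an E2F word (TTTCGCGC or TTTGGCGC) was found in 7 of the 36 genes (19.4%) and in 0.929% of the 27025 genes with a window. The 7 genes were *Mcm3*, *Mcm5*, *Mcm6*, *Mcm7*, *Cdk1*, *Rbl1* and *E2f2*, so 4 of them encode subunits of the MCM helicase. With the 250 bases before the start alone the number was 4. CCAAT, the word bound by NF-Y, was found in 27 of the 36 genes (75.0%) and in 41.1% of all genes with a window. The CHR word (TTTGAA or TTCGAA), known from promoters of mitotic genes, was found in 17 of the 36 genes (47.2%) and in 21.7% of all genes.

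By group, the CHR word was held by 4 of the 5 genes of G2 and mitotic entry and 6 of the 8 genes of the spindle and checkpoint with a window, and by 0 of the 3 G1 genes, 0 of the 2 G1/S genes and 0 of the 3 CDK inhibitors. Among the remaining groups it was held by 2 of the 3 E2F activators, 1 of the 3 E2F repressors, 1 of the 2 pocket protein genes, 2 of the 6 S phase genes and *Mki67*. No word contains another, and a match describes letters in a window and no more. The bases just before the start lie inside an annotated transcript of the same gene in 14 of the 42 windows of these genes, none of them among those printed. The bases before the start of 5 genes are given 5′ to 3′ on the strand of the gene, with the words in capitals: *E2f2* as the gene with the most negative fold change, *Mcm5* as an MCM gene with E2F words, and *Cdk1*, *Ccnb2* and *Top2a* as mitotic genes with CHR and CCAAT words. A word on the other strand appears as its reverse complement (ATTGG for CCAAT). *E2f2* (chr4:136172024-136172273, plus strand) holds a CCAAT here and its E2F word after the start, *Mcm5* (chr8:75109346-75109501, plus strand) holds 2 overlapping E2F words, and *Cdk1* (chr10:69352913-69353130, minus strand) holds 1 E2F word and 2 CHR words. *Ccnb2* (chr9:70421561-70421731, minus strand) holds 3 CCAAT words in a row, and *Top2a* (chr11:99024197-99024426, minus strand) holds 4 CHR words and 6 CCAAT words.
E2f2: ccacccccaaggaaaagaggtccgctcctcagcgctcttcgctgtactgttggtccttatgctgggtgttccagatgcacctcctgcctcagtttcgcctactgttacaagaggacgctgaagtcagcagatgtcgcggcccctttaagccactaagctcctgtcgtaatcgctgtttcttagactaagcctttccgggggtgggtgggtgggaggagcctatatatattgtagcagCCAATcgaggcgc
Mcm5: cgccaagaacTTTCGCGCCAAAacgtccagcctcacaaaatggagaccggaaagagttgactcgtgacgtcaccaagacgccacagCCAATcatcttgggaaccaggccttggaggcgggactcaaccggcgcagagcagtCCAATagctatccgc
Cdk1: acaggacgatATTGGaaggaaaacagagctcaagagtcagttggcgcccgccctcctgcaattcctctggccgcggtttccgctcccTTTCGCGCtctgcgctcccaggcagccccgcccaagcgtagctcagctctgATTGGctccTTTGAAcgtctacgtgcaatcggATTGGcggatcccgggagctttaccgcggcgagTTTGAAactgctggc
Ccnb2: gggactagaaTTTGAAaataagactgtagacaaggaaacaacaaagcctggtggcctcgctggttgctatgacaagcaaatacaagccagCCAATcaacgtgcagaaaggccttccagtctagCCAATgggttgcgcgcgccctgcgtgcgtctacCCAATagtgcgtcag
Top2a: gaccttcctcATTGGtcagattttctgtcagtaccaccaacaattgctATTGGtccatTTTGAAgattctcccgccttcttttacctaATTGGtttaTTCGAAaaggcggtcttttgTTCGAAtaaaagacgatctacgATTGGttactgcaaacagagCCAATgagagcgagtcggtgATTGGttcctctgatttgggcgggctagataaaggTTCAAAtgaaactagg

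The pocket proteins hold the E2F factors in check until CDKs phosphorylate them. None of the 3 passed the test in limma. *Rb1* was at 15.99 to 56.6 normalized counts in WT, at 58.5 in dyW1, 51.2 in dyW2 and 144 in the library labelled dyW3 (log2 fold change 1.504, SE 0.71, adjusted *P*-value of 0.136). Its groups overlap through WT2, which was at 56.6 while the other WT libraries were at 15.99 to 22.6. *Rbl1*, which encodes p107, was at 34.9 to 47.2 in WT, at 55.1 and 54.6 in dyW1 and dyW2 and at 20.5 in the library labelled dyW3. *Rbl2*, which encodes p130, was at 28.7 to 53.3 in WT and at 38.98, 24.5 and 80.6 in dyW. Of the exon length of *Rbl2*, 35.4% overlaps *Aktip* on the other strand.

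The D-type cyclins start G1 in response to growth signals, and the 3 genes differed in their pattern over the libraries. *Ccnd3*, the D-type cyclin that is kept on in differentiating muscle cells, was at 384, 413, 480.0 and 267 normalized counts in WT1 to WT4, and at 249, 53.4 and 142 in dyW1, dyW2 and the library labelled dyW3. Every WT library was above every dyW library, and the WT mean was 2.61 times the dyW mean. The log2 fold change was -1.60 (SE 0.62, adjusted *P*-value of 0.0770), which did not pass at 0.05 and lay above the median of all genes. Without dyW1, the library that nearly lacked fiber markers, it was -2.10 (adjusted *P*-value of 0.0364), and without dyW2 it was -1.005 (0.215). With equal totals it was -0.46 (0.724) and the groups overlapped, and with voom it was -0.44 (0.762).

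*Ccnd2* was at 235, 67.4, 293 and 129 normalized counts in WT1 to WT4, and at 2149.6 in dyW1, 232 in dyW2 and 58.1 in the library labelled dyW3. Only dyW1 was above the WT range, while the library labelled dyW3 was below it, and the dyW1 value, from 22061 reads, was the highest of any of the 46 genes in any library. *Ccnd1* was at 10.7, 64.7, 137 and 75.5 in WT1 to WT4 and at 88.3, 117 and 93.3 in dyW. All dyW values lay inside the WT range, and 48.4% of its exon length overlaps *LTO1* on the other strand. Neither gene passed the test in limma (adjusted *P*-values of 0.538 for *Ccnd2* and 0.450 for *Ccnd1*). For *Ccnd2* the log2 fold change was 0.97 with all libraries, -0.42 without dyW1 and 2.17 without the library labelled dyW3, and that of *Ccnd1* was 0.90 with all libraries and 0.17 without WT1.

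The partner kinase *Cdk4* had the highest mean of the 46 genes in WT. It was at 133, 240.0, 1040.0 and 264 normalized counts in WT1 to WT4, and at 215, 773 and 611 in dyW. The WT mean of 419 ± 418 (SD, n = 4) rested on WT3, and the groups overlap (log2 fold change 0.61, SE 0.78, adjusted *P*-value of 0.579, and 1.19 without WT3). *Cdk6* was at 57.4 to 113 in WT, at 260.1 in dyW1, 41.9 in dyW2 and 164 in the library labelled dyW3, on both sides of the WT range. Per kilobase of exon, which allows genes to be compared, the WT means were 122 normalized counts for *Cdk4*, 41.7 for *Ccnd3*, 19.2 for *Ccnd2*, 15.1 for *Ccnd1* and 5.65 for *Cdk6*.

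At the passage from G1 to S, *Ccne1* and *Ccne2* encode the E-type cyclins and *Cdk2* their kinase, and none of the 3 passed the test in limma. *Ccne1* was at 37.3 to 107 normalized counts in WT, at 33.5 in dyW1, 308 in dyW2 and 16.1 in the library labelled dyW3. *Ccne2* was at 21.3 to 75.9 in WT, at 57.4 in dyW1, 165 in dyW2 and 17.1 in the library labelled dyW3. Both E-type cyclins were thus above the WT range in dyW2 and below it in the library labelled dyW3. *Cdk2* was more even, at 62.9 to 123 in WT and 93.3 to 153 in dyW.

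The CDK inhibitors spread widely among the dyW libraries. *Cdkn1a*, which encodes p21 and is induced by p53, was at 128, 129, 185 and 72.4 normalized counts in WT1 to WT4, and at 734 in dyW1, 428 in dyW2 and 71.8 in the library labelled dyW3. *Cdkn1b*, which encodes p27, was at 32.0, 18.9, 30.8 and 40.9 in WT1 to WT4, at 112 in dyW1, 66.5 in dyW2 and 9.77 in the library labelled dyW3. *Cdkn2c*, which encodes the CDK4 and CDK6 inhibitor p18, was at 5.33, 24.3, 22.6 and 12.6 in WT1 to WT4, at 11.01 in dyW1, 29.3 in dyW2 and 1.95 in the library labelled dyW3. For *Cdkn1a* and *Cdkn1b*, both dyW1 and dyW2 were above every WT library. This held for 9 of the 46 genes, against 5.99% of all genes. For *Cdkn2c*, dyW1 lay inside the WT range. The library labelled dyW3 was below every WT library for all 3 inhibitors.

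With all libraries none of the 3 inhibitors passed the test in limma. For *Cdkn1a* the log2 fold change was 1.21 (SE 0.82, adjusted *P*-value of 0.288) with the mean 3.20 times as high in dyW. Without the library labelled dyW3 it was 2.19 (SE 0.64, adjusted *P*-value of 0.0244), and without dyW1 it was 0.52 (adjusted *P*-value of 0.659). After quantile normalization it was 0.59 (adjusted *P*-value of 0.783). The summed level of the 3 inhibitors was 126 to 238 in WT, 857 in dyW1, 524 in dyW2 and 83.5 in the library labelled dyW3.

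The 6 MCM genes encode the ring that unwinds DNA at replication forks, and *Pcna* the clamp that holds the polymerases. None of the 7 passed the test in limma. *Mcm2* was at 64.0, 75.5, 63.6 and 81.8 normalized counts in WT1 to WT4, at 38.3 in dyW1, 85.0 in dyW2 and 9.28 in the library labelled dyW3. *Mcm3* was at 15.99, 59.3, 69.7 and 40.9 in WT1 to WT4, at 39.1 in dyW1, 287 in dyW2 and 0.488, a single read, in the library labelled dyW3. *Mcm5* was at 42.6, 59.3, 61.5 and 66.1 in WT1 to WT4, at 24.9 in dyW1, 106 in dyW2 and 1.95 in the library labelled dyW3. In these 3 genes dyW2 was above every WT library and the library labelled dyW3 was below every WT library.

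The subunits did not move together in the library labelled dyW3, as *Mcm4* was above the WT range there. *Mcm4* was at 53.3, 80.9, 71.8 and 75.5 normalized counts in WT1 to WT4, at 57.4 in dyW1, 216 in dyW2 and 142 in the library labelled dyW3. *Mcm6* was at 80.0, 162, 238 and 69.2 in WT1 to WT4, at 134 in dyW1, 319 in dyW2 and 55.7 in the library labelled dyW3. *Mcm7* was at 15.99, 48.5, 88.2 and 62.9 in WT1 to WT4 and at 80.3, 38.7 and 44.9 in dyW, all inside the WT range. The fold between the highest and lowest dyW library was 54.3 for *Mcm5*, whose lowest value rests on 4 reads, 9.16 for *Mcm2*, 5.74 for *Mcm6*, 3.77 for *Mcm4* and 2.07 for *Mcm7*, and for *Mcm3* the lowest value, a single read, gives no firm fold.

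*Pcna* had the most positive log2 fold change of the 46 genes. It was at 15.99, 45.8, 103 and 56.6 normalized counts in WT1 to WT4, and at 117 in dyW1, 544 in dyW2 and 126 in the library labelled dyW3. Every dyW library was above every WT library, though dyW1 by little. The log2 fold change was 2.11 (SE 0.83, adjusted *P*-value of 0.0826), and it passed at 0.05 with equal totals for all libraries (3.25, adjusted *P*-value of 0.0193), a scaling that raised the median of all genes from -1.99 to -0.98. Without dyW2 it was 1.39 (adjusted *P*-value of 0.235).

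Entry into mitosis is driven by cyclin A2, the B-type cyclins and CDK1, with the kinases PLK1 and AURKA. None of the 6 genes passed the test in limma. *Ccnb2* was at 53.3, 62.0, 119 and 37.8 normalized counts in WT1 to WT4, at 82.9 in dyW1, 442 in dyW2 and 390.2 in the library labelled dyW3 (log2 fold change 1.95, SE 0.75, adjusted *P*-value of 0.0771). *Ccnb1* was at 47.2 to 131 in WT, at 9.16 in dyW1, 246 in dyW2 and 309 in the library labelled dyW3. For both cyclins dyW2 and the library labelled dyW3 were above every WT library, while dyW1 was inside the WT range for *Ccnb2* and below it for *Ccnb1*. For *Ccnb1* the log2 fold change was 0.32 with all libraries, 1.91 without dyW1 (adjusted *P*-value of 0.0587), -0.39 without dyW2 and -0.56 without the library labelled dyW3.

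*Ccna2* was at 94.4 to 117 normalized counts in WT, at 36.2 in dyW1, 349.6 in dyW2 and 128 in the library labelled dyW3. *Cdk1* was at 107, 113, 406 and 119.6 in WT1 to WT4, at 65.3 in dyW1, 564 in dyW2 and 312 in the library labelled dyW3. *Aurka* was at 16.2 to 47.2 in WT, at 4.00 in dyW1, 71.0 in dyW2 and 1.95 in the library labelled dyW3. *Plk1* was at 20.5 to 28.3 in WT, at 4.58 in dyW1, 8.47 in dyW2 and 92.8 in the library labelled dyW3. Among the dyW libraries, dyW1 was the lowest for 5 of the 6 genes, *Aurka* being the exception, and dyW2 was the highest for 4, with *Ccnb1* and *Plk1* highest in the library labelled dyW3. With all libraries *Plk1* had a log2 fold change of -0.52, which was 0.29 without dyW1 and -1.75 without the library labelled dyW3 (adjusted *P*-value of 0.0432). That of *Aurka* was -1.57 with all libraries, -2.98 without dyW2 (adjusted *P*-value of 0.0307) and -0.67 without the library labelled dyW3.

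For 9 of the 10 genes of the spindle and its checkpoint dyW1 was the lowest dyW library, and for 7 of the 10 dyW2 was the highest. *Top2a*, which encodes the topoisomerase that untangles chromosomes, was at 368, 127, 164 and 151 normalized counts in WT1 to WT4, and at 201, 488 and 608 in dyW (log2 fold change 1.08, SE 0.61, adjusted *P*-value of 0.207). *Bub1*, a checkpoint kinase, was at 34.6 to 55.4 in WT and at 72.5, 132 and 98.2 in dyW. *Cenpf*, a kinetochore protein gene, was at 32.0 to 86.3 in WT and at 94.5, 129 and 149 in dyW. The groups of *Bub1* and *Cenpf* do not overlap, but neither passed the test in limma (log2 fold changes of 1.14 and 1.16, adjusted *P*-values of 0.152 and 0.161). With equal totals 6 genes passed, against 4.56% of all genes: *Bub1* (2.27, adjusted *P*-value of 0.0395), *Cenpf* (2.30, 0.0309), *Ccnb2* (3.09, 0.0217) and *Rb1* (2.63, 0.0429), besides *Pcna* and *Mki67*, and with voom *Top2a* passed (2.47, 0.0245), besides *Mki67*.

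*Bub1b*, the partner of *Bub1* in the checkpoint, was at 37.8 to 45.1 normalized counts in WT, at 1.66 in dyW1, 102 in dyW2 and 71.3 in the library labelled dyW3. *Tpx2*, which activates AURKA on the spindle, was at 50.3 to 92.3 in WT, at 21.6 in dyW1, 342 in dyW2 and 293 in the library labelled dyW3. *Birc5*, which encodes survivin, was at 58.6 to 168 in WT, at 24.9 in dyW1, 661 in dyW2 and 211 in the library labelled dyW3. In these 3 genes dyW1 was below every WT library while the other dyW libraries were above every WT library. *Cdc20*, *Aurkb* and *Kif11* had means of 79.5 ± 50.5, 41.4 ± 12.6 and 85.2 ± 10.9 in WT (SD, n = 4) and of 154 ± 168, 94.6 ± 67.3 and 157 ± 143 in dyW (SD, n = 3), with overlapping groups. *Cenpe*, a kinetochore motor gene, was at 34.6 to 57.4 in WT, at 82.0 in dyW1, 239.8 in dyW2 and 3.42 in the library labelled dyW3.

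*Mki67* was above the WT range in all 3 dyW libraries. It was at 112, 48.5, 86.2 and 113 normalized counts in WT1 to WT4, and at 251, 341 and 206 in dyW1, dyW2 and the library labelled dyW3, so that the dyW mean was 2.95 times the WT mean. The log2 fold change was 1.60 (SE 0.55, adjusted *P*-value of 0.0574), just short of the threshold of 0.05. It passed with equal totals for all libraries (2.74, adjusted *P*-value of 0.0201), with a pseudocount of 0.1 (0.0441) and with voom on the recovered reads (0.0190), where equal totals also raised the median of all genes to -0.98. It was 0.99 after quantile normalization (0.518), and the adjusted *P*-value was 0.0541 to 0.146 with each library left out and 0.158 with the block.

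Across the groups of genes, each dyW library had its own profile. In dyW1, 10 of the 16 genes of G2, mitosis and the checkpoint were below every WT library and 3 were above. In dyW2, 15 of these 16 genes were above every WT library, *Plk1* being the exception, and in the library labelled dyW3, 12 of them were above. Over all 46 genes, 13 were above the WT range in dyW1 (14.7% of all genes tested), 31 in dyW2 (15.4%) and 19 in the library labelled dyW3 (22.9%). Below the WT range were 19 genes in dyW1 (53.1% of all genes), 7 in dyW2 (58.5%) and 19 in the library labelled dyW3 (48.2%).

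**Figure D3:**
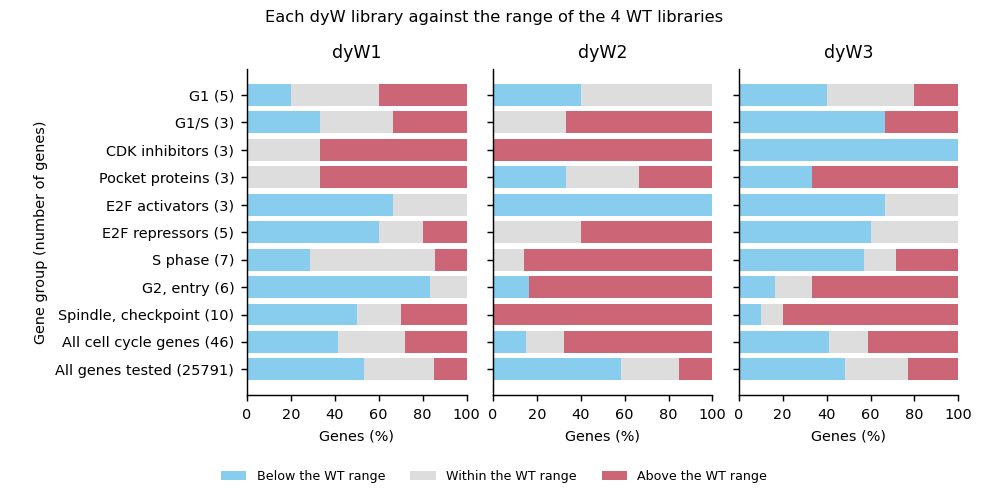
Share of genes (x axis, percent) of each group (y axis, number of genes in brackets) that were below, within or above the range of the 4 WT libraries, in dyW1, dyW2 and the library labelled dyW3. All 10 spindle and checkpoint genes lie above the WT range in dyW2 and 5 lie below it in dyW1, while all 3 CDK inhibitors lie below it in the library labelled dyW3 and the activators *E2f1* and *E2f2* lie below it in every dyW library.

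Leaving out dyW1 raised the number of genes with every dyW library above every WT library from 4 to 14, among them *Ccna2*, *Ccnb1*, *Ccnb2*, *Top2a*, *Bub1b*, *Aurkb*, *Birc5*, *Tpx2* and *Kif11*, while it raised the share of all genes from 3.28% to 6.32%. Without dyW1, *Ccnb2* (log2 fold change 2.72, adjusted *P*-value of 0.0189) and *Tpx2* (2.13, adjusted *P*-value of 0.0276) were higher in dyW, while *Tpx2* was at a log2 fold change of 0.86 with all libraries and 0.17 without dyW2. Leaving out dyW2 gave 9 genes with every WT library above every dyW library, *Ccne1*, *E2f5*, *E2f6*, *Mcm2*, *Mcm5* and *Aurka* being added to the 3 above, where 35.2% of all genes were so. Leaving out a library can add to these numbers but cannot take from them.

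The spread between libraries was wide. The median CV of the 46 genes was 38.8% in WT and 81.1% in dyW, and it was higher in dyW for 36 of the 46 genes. Over all genes tested the median CV was 55.9% in WT and 127% in dyW, and 87.9% of genes had the higher CV in dyW.

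**Figure D4:**
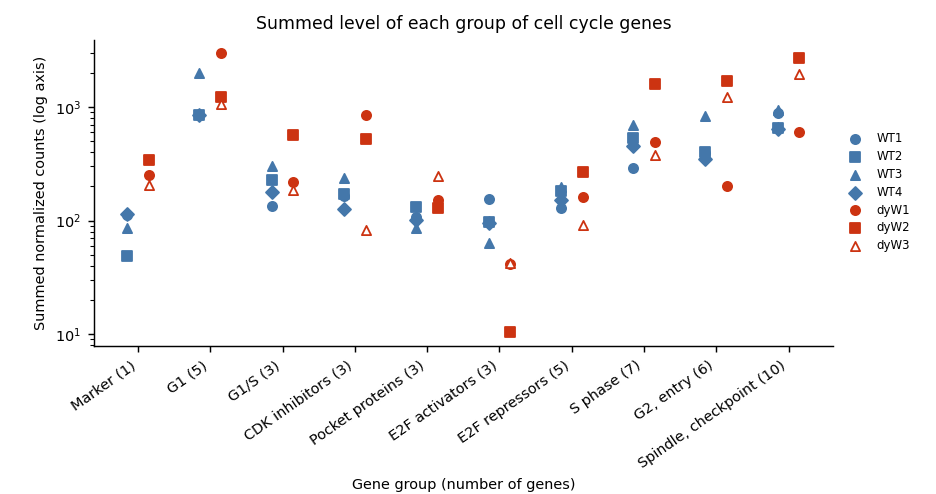
Summed normalized counts (y axis, log scale) of each group of cell cycle genes (x axis, number of genes in brackets) in each library, with WT in blue, dyW1 and dyW2 in filled red and the library labelled dyW3 in open red. Spindle and checkpoint genes summed to 645 to 937 in WT, 601 in dyW1, 2703 in dyW2 and 1940.2 in the library labelled dyW3, and the E2F activators to 63.6 to 155 in WT and 10.5 to 42.5 in dyW.

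Markers of other cells also differed between the libraries. The 9 fibroblast markers summed to 4350 to 12679 normalized counts in WT and to 21214 to 28764 in dyW, and 3 of the 9 were higher in dyW in limma at 0.05, against 1.004% of all genes. The markers did not all follow these sums, as *Col3a1* was at 581 to 4129 in WT but at 232 in dyW1, where *Osr1* and *Twist2* were at 0. The 9 markers of myogenic progenitors summed to 235 to 596 in WT, 81.9 in dyW1, 879.9 in dyW2 and 822 in the library labelled dyW3, with 4 of the 9 at 0 in dyW1. Among the dyW libraries, the summed spindle and checkpoint genes were highest in dyW2 and lowest in dyW1. The sums of progenitor, fiber, neural (44.4, 782 and 303) and epidermal markers (11.7, 57.8 and 13.2) had this order. The fibroblast, endothelial, leukocyte, erythroid and cartilage sums did not, and an order of 3 libraries matches easily by chance. In WT the progenitor sum was lowest in WT1, where the spindle and checkpoint sum of 879.6 was the second highest. The 8 measured erythroid markers summed to 14.8 in dyW1 and 101 in WT1, and to 28845 to 291290 in the other libraries. The part of these cells in the results was not tested.

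Low counts in the WT libraries were set against genes that muscle does not use. Odorant and vomeronasal receptor genes, 1207 of them, carried a median of 3.37 to 6.69 normalized counts per kilobase of exon in the WT libraries, 0 in dyW1 and dyW2 and 0.522 in the library labelled dyW3. Pooled over all 1207 genes, the density was 3.98 to 7.49 in WT, 0.198 in dyW1 and 0.0236 in dyW2, but 7.05 in the library labelled dyW3, inside the WT range, where 56.4% of these genes had a read against 79.8% to 98.3% in WT. The comparisons below rest on the median, which takes little from that library. Of the 46 genes, 39 had a WT median above this receptor level per kilobase, 25 were above 2 times and 5 above 5 times that level, against 58.0%, 21.5% and 5.75% of the 25622 tested genes with an exon length. The 5 were *Cdk4* (12.4 times), *Ccnd3* (9.50), *Cdc20* (7.76), *Ccna2* (5.94) and *Ccnb2* (5.65).

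At the lower end, *Rb1* and *Cdkn2c* were at 0.455 times the receptor level, *Rbl2* at 0.573, *E2f8* at 0.576, *Cenpf* at 0.700, *E2f3* at 0.759 and *E2f6* at 0.776. *E2f1* was at a median of 2.50 times the receptor level in WT (1.51 to 6.86) and *E2f2* at 1.17 times (0.680 to 1.90), so that the WT reads of *E2f2* were about as dense as those of the receptor genes. After subtraction of the receptor level from each library, the log2 fold change of *E2f1* was -2.49 (not called), and *E2f2* was not among the 45 genes still tested. *Rb1* (6.24, adjusted *P*-value of 0.0350) and *Cenpf* (6.91, adjusted *P*-value of 0.0334), both below that level in the WT median, were called higher, against 1.97% of all genes. The level taken off per kilobase was 3.37 to 6.69 in WT, 0 in dyW1 and dyW2 and 0.522 in the library labelled dyW3. Values below it were set to 0, so the subtraction itself lowered WT and raised the folds of *Rb1* and *Cenpf*. The part of such reads in the fall of *E2f1* and *E2f2* was not tested further.

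**Figure D5:**
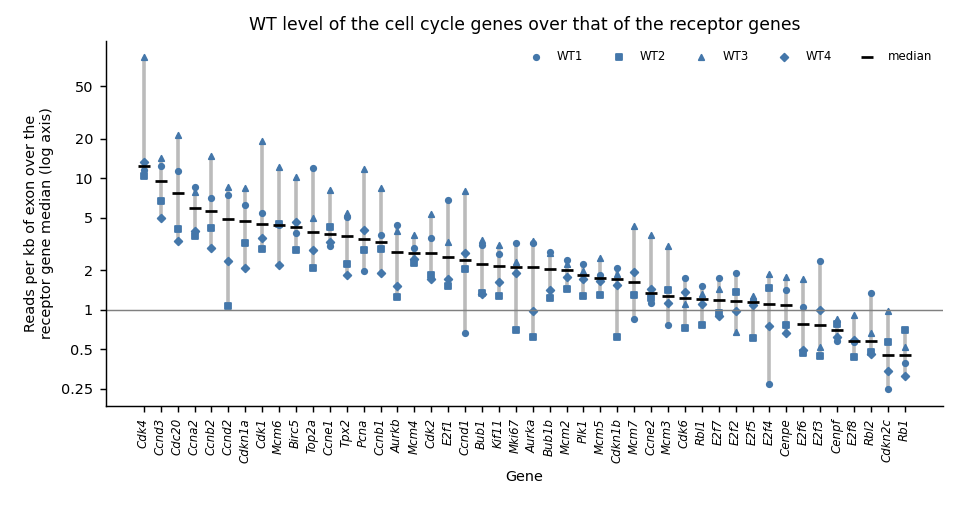
Reads per kilobase of exon of each of the 46 genes (x axis) over the median of 1207 odorant and vomeronasal receptor genes in the same WT library (y axis, log scale), with 1 point per WT library, grey bars from the lowest to the highest and black dashes for the median. The dashes of 39 genes lie above 1 and those of 5 genes above 5, *E2f2* at 1.17 and *E2f1* at 2.50.

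The other genes of the pathway, 144 in 7 lists of which 140 passed the filter on low values, held 5 lower (3.57%, against 29.6% of all genes) and 2 higher in dyW (against 1.004% of all genes) in limma at 0.05 and 0 at 0.01. Their median log2 fold change was -0.11. The 5 lower genes were *Mybl2*, an activator of cell cycle genes (-3.61, adjusted *P*-value of 0.0486), *Fzr1*, which activates the APC/C ubiquitin ligase in G1 (-4.17, 0.0201), *Kif18b*, a motor of the spindle (-3.20, 0.0339), *Espl1*, which encodes separase (-2.43, 0.0479), and *Nuf2*, a kinetochore gene (-2.37, 0.0250). The 2 higher genes were *Orc4*, a subunit of the origin recognition complex (1.90, 0.0209), and *Cdc27*, a subunit of the APC/C (1.88, 0.0216). None of the 5 lower genes was called without WT1, without WT2, without WT4, with equal totals, quantile normalization or voom, with a mean of at least 50, with the block or with the receptor level subtracted. *Orc4* and *Cdc27* were not called without WT2, without WT4, after quantile normalization, with a mean of at least 50 or with the block, and *Cdc27* also not with the receptor level subtracted.

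Single libraries moved 4 of the 5 lower genes by more than 1.5-fold. Without dyW1 the log2 fold change was -5.61 for *Fzr1*, -4.79 for *Mybl2* and -4.06 for *Kif18b*, and without the library labelled dyW3 it was -3.25, -2.68 and -2.47. Without WT1 it was -3.02 for *Mybl2* and -1.84 for *Espl1*.

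*Orc4* was at 53.3, 53.9, 51.3 and 40.9 normalized counts in WT1 to WT4 and at 194, 161 and 214 in dyW, and *Cdc27* at 53.3, 48.5, 57.4 and 47.2 in WT and at 208, 156 and 219.8 in dyW. These 2 genes were even within each genotype, with no overlap. *Mybl2* was at 155, 59.3, 12.3 and 31.5 in WT1 to WT4 and at 17.6, 1.64 and 0 in dyW, and its groups overlap. *Espl1* was at 261 in WT1, the library with the cartilage markers, at 40.5, 38.97 and 78.7 in WT2 to WT4 and at 12.1, 16.4 and 11.7 in dyW. *Fzr1* was at 74.6, 67.4, 38.97 and 85.0 in WT1 to WT4 and at 25.5, 0.759 and 0 in dyW. *Kif18b* was at 42.6, 29.7, 8.21 and 31.5 in WT1 to WT4 and at 8.09, 1.26 and 0 in dyW, and *Nuf2* at 101, 83.6, 51.3 and 75.5 in WT and at 11.99, 27.7 and 7.81 in dyW. Of the 5 lower genes, all but *Mybl2* had every WT library above every dyW library, which their selection by the same values makes likely. Among the 140 genes of the lists, 10 had every WT library above every dyW library (31.5% of all genes). The reverse held for 11 (3.28% of all genes).

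By list, the 17 genes of replication licensing and initiation held 0 lower and 1 higher gene, with a median log2 fold change of 0.37. The 26 tested genes of nucleotide supply and the replication fork held 0 of either, with a median of -0.57, and at 0.05 the 45 genes of spindle, kinetochore and cytokinesis held 3 lower genes, with a median of -0.31. The 10 tested genes of the DREAM and MuvB complexes held 1 lower gene (median -0.37) and the 23 tested genes of the APC/C and SCF ligases held 1 lower and 1 higher (median 0.16). The 9 tested CDK inhibitors and their inducer and the 10 kinases and phosphatases that act on CDKs held 0 of either, with medians of 0.40 and -0.17. All of these medians lay above the -1.99 of all genes tested.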

How the data were processed

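RNA from muscle fibers of embryonic day 17.5 fetuses was measured in 4 WT and 3 dyW libraries, grouped by the genotypes in the labels. The authors used Cutadapt for trimming, RNA STAR for alignment to GRCm39 and FeatureCounts for unique reads per gene, and deposited counts divided by 1 size factor per library, the normalized counts used here as deposited. The versions and the strand setting are not given in the sources used here. Whole reads were recovered from the steps of the values (100% whole within 0.01 reads). The authors' table of fold changes and *P*-values was not used.

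Genes averaging at least 5 normalized counts entered the comparison, made on log2(normalized count + 1) with limma 3.58.1 (lmFit, eBayes with trend) in R 4.3.3, with Benjamini-Hochberg adjustment over all 25791 genes. Fold changes of low genes are understated on this scale, and *P*-values measure the spread between these libraries. Single genes were also compared by exact two-sided permutation tests. Coordinates and exon lengths came from GENCODE mouse release 39, promoters from RefSeq (GRCm38.p6). Reads on overlapping genes, and on near-identical copies, are uncertain. Tables were made in Python 3.11.15 (scipy 1.17.1, pandas 2.3.3, numpy 2.4.6) and plots in matplotlib 3.10.9.

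The members, lists, markers and tests were chosen with earlier results of these data known. All 46 genes may be named. Values in every library are given for genes called at either threshold, D-type cyclins, CDK inhibitors, E2F and MCM genes and the 3 genes with the highest mean in each genotype; others were chosen after their values were seen. Of each of the 7 lists of other pathway genes, at most the 3 most negative and 3 most positive called genes are named. The markers of leukocytes, endothelium, neural cells and epidermis are reported in the closing section. The alternatives were other pseudocounts, filters and scalings, subtraction of the receptor gene level, a replicate block, each library left out, and, chosen after seeing the data, voom on the recovered reads.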

Additional observations from a re-analysis of the deposited data

Results flagged for a closer look

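In the WT group of 4 libraries, 5 of the 46 genes had 1 library far from the other 3 (Dixon's test of the gap over the range), and chance alone flags about 1 in 20 groups. *Cdk4* was at 1040.0 normalized counts in WT3, while the other WT libraries were at 133 to 264. *Cdk1* was at 406 in WT3, against 107 to 119.6 in the others. *E2f1* was at 80.0 in WT1, against 34.6 to 41.0 in the others, so the WT library farthest from dyW was also the one with the fewest reads. *Top2a* was at 368 in WT1, against 127 to 164. *Rb1* was at 56.6 in WT2, against 15.99 to 22.6. WT1 is the library whose cartilage markers summed to 439454, and the part of those cells in its *E2f1* and *Top2a* values was not tested. The dyW group of 3 libraries is too small for this check.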

How the results depend on the processing

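The alternatives to the limma fit moved most counts. The number of the 46 genes lower at an adjusted *P*-value under 0.01, 1 in the fit reported, was 0 with equal totals, quantile normalization, pseudocounts of 0.1 and 10, a mean of at least 50, the replicate block, subtraction of the receptor level and voom, and 0 to 1 with each library left out. That 1 was *E2f1* without the library labelled dyW3 (0.00650), where *E2f2* was at 0.0112. *E2f2*, the gene called in the fit reported, was at 0.0102 to 0.0378 with each library left out. Of all genes, 0% were lower at 0.01 with equal totals, a pseudocount of 10, a mean of at least 50 and the receptor level subtracted, 0.00775% with quantile normalization, 0.00388% with the block, 20.04% with a pseudocount of 0.1, 20.6% with voom and 0% to 25.8% with each library left out. At an unadjusted *P*-value under 0.05 these fits held 4 to 14 of the 46 genes (8.70% to 30.4%) and 15.5% to 50.5% of all genes. The number lower at 0.05, 2 as reported, was 1 with equal totals and voom, 0 with quantile normalization, the block, a mean of at least 50 (*E2f1* and *E2f2* not tested) and the receptor level subtracted (*E2f2* not tested), and 1 to 3 with each library left out. The number higher at 0.05, 0 as reported, was 6 with equal totals, 1 with a pseudocount of 0.1, 2 with the receptor level subtracted and with voom, and 0 to 2 with each library left out. The share of all genes lower at 0.05 was 17.9% with equal totals, 26.6% with voom, 0.318% with quantile normalization, 0.00775% with the block, 0.0491% with a mean of at least 50, 0.658% with the receptor level subtracted and 22.1% to 41.4% with each library left out. The share of all genes higher was 4.56% with equal totals, 1.05% with a pseudocount of 0.1, 1.97% with the receptor level subtracted, 1.86% with voom and 0.321% to 1.47% with each library left out, and these shares apply to the other pathway genes too. Without the library labelled dyW3 the 46 genes held 3 lower (41.4% of all genes) and 1 higher (1.47%).

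Of the other pathway genes, 5 were lower and 2 higher at 0.05. The lower were 0 with equal totals, quantile normalization, a mean of at least 50, the block, the receptor level subtracted and voom, 2 and 3 with pseudocounts of 0.1 and 10, and 0 to 8 with each library left out. The higher were 15 with equal totals, 4 with the receptor level subtracted, 8 with voom, 0 with quantile normalization, a mean of at least 50 and the block, and 0 to 8 with each library left out. At 0.01 the lower were 0 to 3 with each library left out, the 3 without the library labelled dyW3, where 25.8% of all genes were lower.

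The distance of the median cell cycle gene from the median gene, 2.28 as reported, was 0.35 with quantile normalization, 3.56 and 1.12 with pseudocounts of 0.1 and 10, 0.38 with a mean of at least 50, 0.78 with the receptor level subtracted, 3.17 with voom and 1.73 to 2.95 with each library left out. The median of all genes moved from -1.99 to -0.98 with equal totals and 0.06 with quantile normalization. Genes with every dyW library above every WT library, 4 as reported, were 12 with equal totals and 4 to 14 with each library left out, and those with WT above, 3 as reported, were 2 with equal totals and 3 to 9 with each library left out, which can only add genes. The WT counts over the receptor level were 25 for a factor of 2 and 5 for a factor of 5. With 250 bases, 4 genes held an E2F word.

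The labels do not say whether libraries with the same replicate number belong together. The correlations of same-numbered libraries were 0.15, -0.05 and -0.09, and the highest of any pair was 0.23, for WT3 with dyW2. With so few libraries these values cannot show whether any libraries are paired. With the block, the log2 fold change was -3.96 (adjusted *P*-value of 0.0617) for *E2f2* and -3.37 (0.0812) for *E2f1*, and 2 of all genes were called lower and 0 higher at 0.05. For single genes, 721 alternative values were computed, of which 605 kept their direction and their side of the threshold, 89 changed sign without a call, 17 gained a call and 10 lost one. The causes of these shifts were not tested. The planned edgeR and DESeq2 fits were not run. With 1 to 72 reads per gene in WT1, small differences were not detectable.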

Other observations

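The 9 leukocyte markers summed to 139 to 707 normalized counts in WT, 108 in dyW1, 368 in dyW2 and 1055 in the library labelled dyW3, with 6 of the 9 at 0 in dyW1. The 7 neural and Schwann cell markers summed to 236 to 349 in WT and to 44.4, 782 and 303 in dyW, and 1 of the 7 was lower in dyW in limma at 0.05. The 3 measured epidermal markers summed to 61.5 to 94.4 in WT and to 11.7 to 57.8 in dyW, and 2 of the 3 were lower. Also lower were 2 of the 8 erythroid and 1 of the 12 fiber markers, against 29.6% of all genes at this threshold. The 8 endothelial markers summed to 602 to 752 in WT and to 839 to 1517 in dyW, with 0 of the 8 called in limma.

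As parts per 1000000 of the normalized counts of a library, the 46 genes together took 552 to 1279 in WT, 4243 in dyW1, 3905 in dyW2 and 3059.8 in the library labelled dyW3, so that the groups do not overlap on this scale. In the WT libraries the 10 most abundant genes of all took 43.3% to 77.3% of the total, against 16.4% to 37.6% in dyW, and the total sets this scale. On the deposited scale the sums of the 46 genes were 3062 to 5458 in WT and 5475 to 9037 in dyW.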
